A study of Rattus norvegicus with 6 samples.

Results

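The circadian clock genes described here are Nr1d1, Nr1d2, Dbp, Per2, Per3 and Arntl, the last of which the array annotation lists under its other name, Bmal1. They were chosen by name, with earlier results of these arrays known, to compare clock gene levels between nerve pools. Of the 6 genes, 5 had a probe, 1 each, among the 21549 probes kept and the 13192 named genes with a probe. Nr1d2 had no probe under its symbol and was not analysed here. Nr1d1, Arntl and Per2 were detected on all 6 arrays and Dbp on 5, so 4 of the 6 genes were among the 10484 probes tested. Per3 was detected on 0 arrays.

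The study measured RNA of the trigeminal nerve, the main sensory nerve of the face, in untreated rats aged 85 days. Its groups were the inbred strain BDIX, which is prone to nerve tumours after a chemical carcinogen, the inbred strain BDIV, and the congenic BDIX.BDIV-Mss4a, called congenic here, which carries a BDIV segment on the BDIX background. Pooled nerves of each strain and sex gave 1 Illumina BeadChip array, which makes 6 arrays with 2 per strain and 3 per sex. The number of animals in a pool and the time of day at which nerves were taken do not appear in these sources, so strain, time of day and any hybridisation batch cannot be told apart. The p-values measure only the spread between these pools.

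In mammals the clock runs in most cells as a loop of transcription. The proteins of Arntl and Clock bind E-boxes and switch on the Per and Cry genes, whose proteins return to the nucleus and repress their own activators, and in a second loop the nuclear receptors of Nr1d1 and Nr1d2 repress Arntl. In mouse and rat tissues followed over the day, Nr1d1 and Dbp peak during the light phase, Per2 nearer to dusk, and Arntl runs roughly opposite to Nr1d1.

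The sequences just upstream of 4 of these genes are shown because the loop acts through short motifs in them, and because Nr1d1, Arntl and Bhlhe40 are the genes whose levels the results turn on. Each is the 250 bases before an annotated start, from RefSeq on build GRCr8, read 5′ to 3′ on the strand of the gene, with motif matches in capitals. Nr1d1 has a start at the end of the gene (chr10:84231813-84232062, minus strand) and a second one inside it (chr10:84229455-84229704, minus strand). The windows of Bmal1 (chr1:176766078-176766327, plus strand), Per2 (chr9:99496994-99497243, minus strand) and Bhlhe40 (chr4:143174200-143174449, plus strand) each precede 1 start.
Nr1d1, outer start: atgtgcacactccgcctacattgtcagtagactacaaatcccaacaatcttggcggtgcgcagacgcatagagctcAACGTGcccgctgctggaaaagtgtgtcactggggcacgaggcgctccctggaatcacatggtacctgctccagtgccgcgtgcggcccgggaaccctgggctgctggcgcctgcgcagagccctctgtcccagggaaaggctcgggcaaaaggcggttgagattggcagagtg
Nr1d1, inner start: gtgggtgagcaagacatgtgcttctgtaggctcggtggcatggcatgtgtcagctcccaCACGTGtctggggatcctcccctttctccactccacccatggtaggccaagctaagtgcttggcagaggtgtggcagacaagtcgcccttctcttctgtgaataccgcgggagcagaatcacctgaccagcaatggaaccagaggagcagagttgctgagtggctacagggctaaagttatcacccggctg
Bmal1: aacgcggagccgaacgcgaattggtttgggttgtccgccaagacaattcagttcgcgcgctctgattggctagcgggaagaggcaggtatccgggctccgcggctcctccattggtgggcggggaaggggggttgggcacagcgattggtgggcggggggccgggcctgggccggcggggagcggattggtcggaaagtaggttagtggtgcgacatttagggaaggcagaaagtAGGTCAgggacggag
Per2: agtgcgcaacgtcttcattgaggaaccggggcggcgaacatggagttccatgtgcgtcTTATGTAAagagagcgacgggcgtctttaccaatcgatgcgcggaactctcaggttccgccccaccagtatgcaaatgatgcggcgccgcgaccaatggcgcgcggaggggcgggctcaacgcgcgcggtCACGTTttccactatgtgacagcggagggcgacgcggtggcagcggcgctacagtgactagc
Bhlhe40: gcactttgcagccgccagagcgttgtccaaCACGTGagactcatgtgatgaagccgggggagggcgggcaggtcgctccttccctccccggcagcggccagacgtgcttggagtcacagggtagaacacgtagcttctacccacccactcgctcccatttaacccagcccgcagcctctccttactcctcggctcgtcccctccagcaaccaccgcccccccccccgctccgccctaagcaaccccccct

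The motifs searched on both strands were the E-box CACGTG, its variant CACGTT, the core AGGTCA of the element that Nr1d1 and the ROR receptors bind, and the D-box as TTATGTAA or TTATGCAA, which Dbp binds. The outer Nr1d1 window held the E-box variant on the opposite strand, 174 to 169 bases before the start, and the inner window held the E-box 191 to 186 bases before its start. The Bmal1 window held AGGTCA 15 to 10 bases before the start. The Per2 window held CACGTT 62 to 57 bases and the D-box TTATGTAA 192 to 185 bases before the start, and that of Bhlhe40 held the E-box 220 to 215 bases before its start. Of the other members, the Nr1d2 window held AGGTCA 187 to 182 bases before the start, and those of Dbp and Per3 held none of these letters. Of other clock genes searched, the Tef window held the E-box 198 to 193 bases before the start. The Cry2 window held the E-box variant on the opposite strand, 212 to 207 bases before the start. The windows of Per1, Nfil3 and Timeless held none of these letters. Whether a motif goes with the level of a gene was not tested. Among 33469 rat promoter windows of the same length, 5.59% held CACGTG, 4.07% CACGTT, 14.1% AGGTCA and 1.60% either form of the D-box, so each match is a description of the sequence and not evidence of a bound site.

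Values below are log2 intensities after background correction and quantile normalisation, and differences carry the standard error (SE) of a limma fit on all 6 arrays. The arrays differed in brightness before normalisation. With the background mean subtracted, the upper quartile of signals was 132 to 133 on the congenic arrays, 274 to 287 on the BDIX arrays and 360 to 361 on the BDIV arrays, and between 40.3% and 47.2% of the probes were detected per array at a detection p under 0.01. The 3 strain comparisons share arrays and are not independent of each other.

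Nr1d1, a heme-binding nuclear receptor that represses Arntl and many metabolic genes, spanned the widest range of the members, 3.23 log2 units over the 6 arrays. It read 10.26 in the congenic male and 10.61 in the congenic female pool, 9.53 and 9.62 in the BDIX pools, and 7.64 and 7.38 in the BDIV pools. Both BDIV pools lay below every other pool, both congenic pools lay above every other pool, and no strains overlapped. BDIV was lower than BDIX by a log2 difference of -2.06 ± 0.21 (SE, 2 arrays per strain), a 4.18-fold difference. The congenic strain was 0.86 ± 0.21 above BDIX (1.82-fold) and 2.92 ± 0.21 above BDIV (7.59-fold). In bulk RNA such as this, fewer cells that express a gene and less RNA per cell cannot be told apart.

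Among all 10484 tested probes the Nr1d1 difference ranked 35 from the lowest in BDIV minus BDIX and 13 from the highest in congenic minus BDIV. In these comparisons 0.96% and 0.33% of the probes lay at least as far from 0. In congenic minus BDIX the share was 12.02%, so the difference there was one of many of its size. Nr1d1 was chosen with earlier results of these arrays known, so these ranks are a description and nothing is read from them. The male and female pools of a strain differed by -0.36 (male minus female) in the congenic strain, -0.09 in BDIX and 0.26 in BDIV, all smaller than the gaps between strains.

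How far Nr1d1 in the congenic strain lay above BDIX depended on the scaling of the arrays. In the deposited signal, which still holds the background, Nr1d1 read 796 and 1018 in the congenic pools, 890 and 915 in the BDIX pools and 347 and 293 in the BDIV pools. On that scale the congenic and BDIX pools overlapped and the BDIV pools stayed lowest. With the arrays scaled to a common median in place of quantile normalisation, congenic minus BDIX was 0.26 for Nr1d1 and -0.47 for the median of all probes, and BDIV minus BDIX was -1.68 for Nr1d1 and 0.29 for the median of all probes. The authors' processed values read 705 and 918 in the congenic pools, 402 and 393 in the BDIX pools and 102 and 87.8 in the BDIV pools. Which strand or part of the gene the probe covers was not analysed here, and the Nr1d1 gene overlaps the thyroid hormone receptor gene Thra on the opposite strand.

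**Figure D1:**
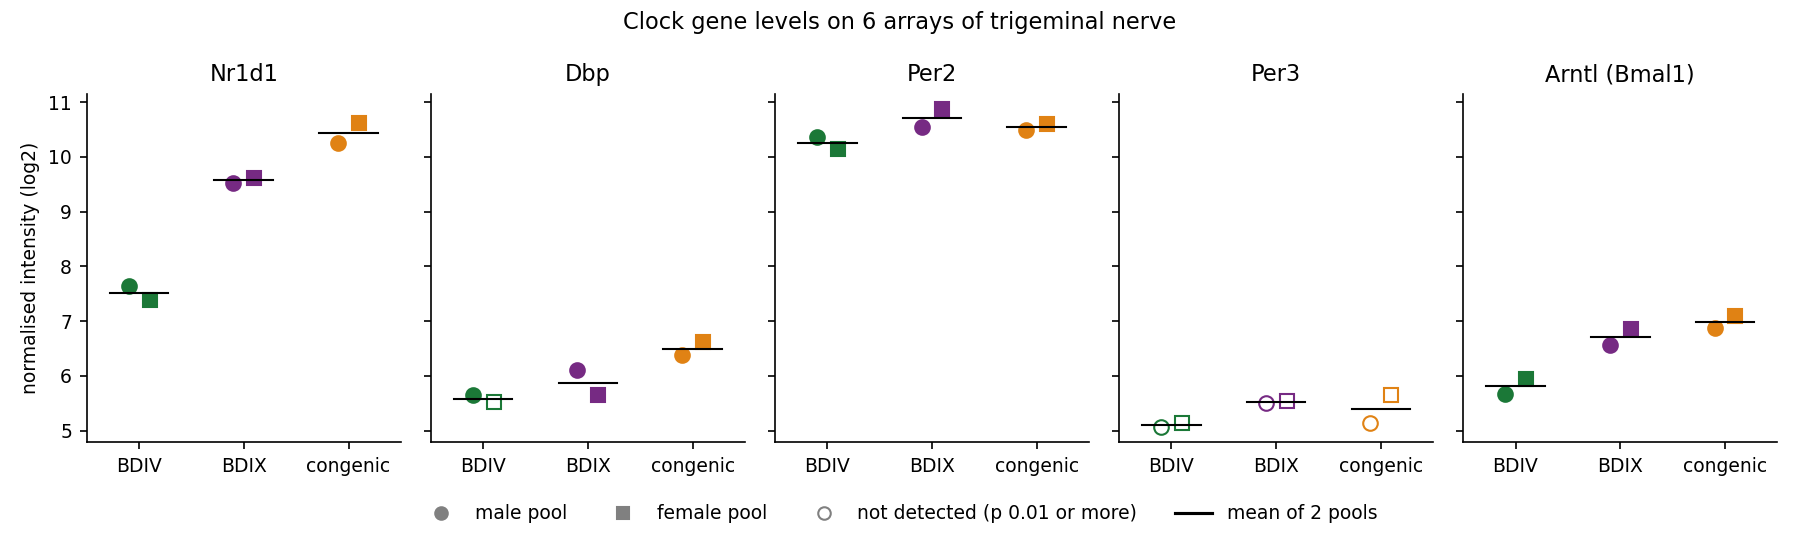
Normalised intensity (log2) of the 5 clock genes with a probe, by strain, with circles for male pools, squares for female pools, open symbols where the probe was not detected and a line at the mean of the 2 pools. Nr1d1 runs from 7.38 in the BDIV female to 10.61 in the congenic female pool, whereas Per2 stays between 10.15 and 10.87.

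Arntl (Bmal1), the activator that pairs with Clock, was lowest in the same strain as Nr1d1. The congenic pools read 6.87 (male) and 7.09 (female), the BDIX pools 6.55 and 6.85, and the BDIV pools 5.66 and 5.95. The BDIV pools lay below all others, while the highest BDIX pool and the lowest congenic pool were separated by less than the gap between the pools of either strain. The difference was -0.90 ± 0.20 for BDIV minus BDIX (1.86-fold lower), 0.27 ± 0.20 for congenic minus BDIX and 1.17 ± 0.20 for congenic minus BDIV (2.26-fold higher). The probe was dim, with a deposited signal of 109 to 180 over background means of 57.9 to 85.5, so its log2 differences also depend on the background correction. On the quantile normalised scale both Arntl and its repressor Nr1d1 read lowest in the BDIV pools. The place of the congenic strain against BDIX turned with the scaling for Arntl, to -0.33 with median scaling (congenic minus BDIV 0.49), and its deposited signal was lower in the congenic pools (140 and 146) than in the BDIX pools (152 and 180).

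Dbp, a transcription factor of the PAR bZIP family that binds D-boxes and is a direct target of the Arntl and Clock pair, was near the limit of detection. It read 6.38 and 6.62 in the congenic pools (male first), 6.10 and 5.64 in the BDIX pools, and 5.65 and 5.52 in the BDIV pools. The congenic pools lay above all others, the BDIX and BDIV pools overlapped, and the BDIV female pool was not detected, with a detection p of 0.0158. The difference was -0.29 ± 0.23 for BDIV minus BDIX, 0.63 ± 0.23 for congenic minus BDIX and 0.91 ± 0.23 for congenic minus BDIV. Its deposited signal ran from 90.1 to 124 on all arrays, so these differences rest on readings close to background. With the background mean subtracted and before scaling, Dbp read 36.9 and 43.8 in the congenic pools. The BDIX pools then read 53.9 and 32.2 and the BDIV pools 41.4 and 34.3, so the strains overlapped on that scale.

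Per2, one of the repressors that close the first loop, was well above background on every array and spanned the narrowest range of the 4 members tested, 0.72 log2 units. Levels were 10.50 and 10.60 in the congenic pools (male first), 10.54 and 10.87 in the BDIX pools, and 10.37 and 10.15 in the BDIV pools. The congenic and BDIX pools overlapped and the BDIV pools lay just below them. The difference was -0.45 ± 0.20 for BDIV minus BDIX, -0.15 ± 0.20 for congenic minus BDIX and 0.29 ± 0.20 for congenic minus BDIV. With median scaling these differences were -0.0006, -0.73 and -0.72, against 0.29, -0.47 and -0.80 for the median of all probes. The deposited Per2 signal read 931 and 1011 in the congenic, 1742 and 2045 in the BDIX and 2051 and 1751 in the BDIV pools. On that scale the congenic pools were lowest and the BDIX and BDIV pools overlapped. Per3, a period gene whose loss alters the clock little in mice, was not detected on any array, with detection p values from 0.0109 to 0.207 and readings of 5.07 to 5.65 that lie at background.

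Counted by the threshold used for all probes, an adjusted p under 0.05, 2 of the 4 members tested were called lower in BDIV than in BDIX, where 27.3% of all probes were called and 13.5% were called lower. In congenic minus BDIX 1 of 4 was called higher, where 11.9% of all probes were called, 4.39% higher and 7.51% lower. In congenic minus BDIV 3 of 4 were called higher, where 37% of all probes were called and 18.1% higher. The members were chosen with these differences known, so nothing is read from the counts, or from which of the calls below were lost or left. The call of Nr1d1 against BDIX was lost without either congenic pool, those of Arntl without the BDIV female pool or, against BDIX, either BDIV pool, and that of Dbp without the congenic female or either BDIV pool. Median scaling ended the same calls, of Nr1d1 against BDIX, of Arntl in both comparisons and of Dbp. It left the Nr1d1 calls that involve BDIV. The differences of the ended calls were 0.26, -0.83, 0.49 and 0.45 in that setting. Relative to the median of all probes there they were 0.73, -1.12, 1.29 and 1.24. With quantile normalisation the median difference of all probes was -0.03, 0.00 and -0.02 in the 3 comparisons. With median scaling it was 0.29, -0.47 and -0.80.

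**Figure D2:**
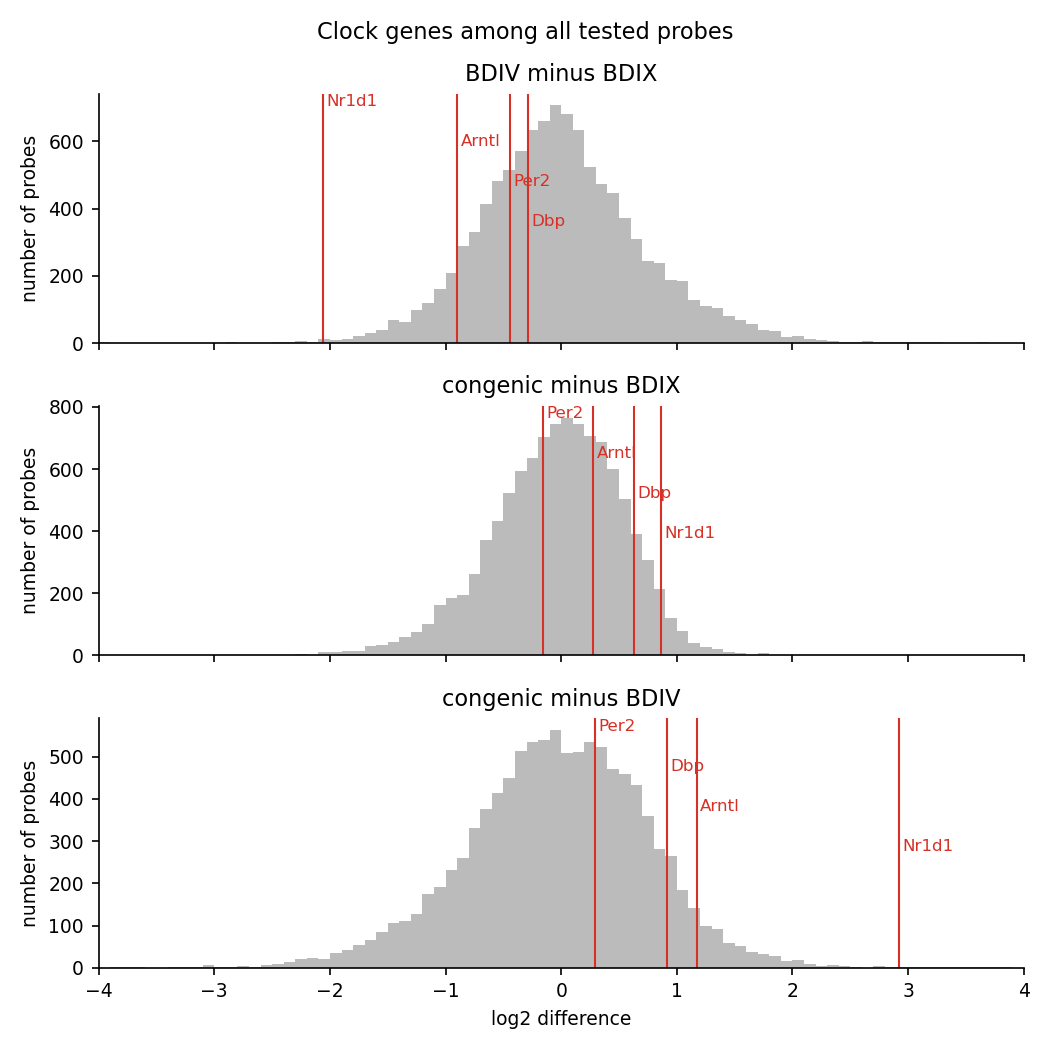
Number of tested probes by log2 difference in each of the 3 strain comparisons, with the 4 clock genes tested marked by lines. The Nr1d1 line lies in the outer tail of BDIV minus BDIX (-2.06) and of congenic minus BDIV (2.92), and among many probes in congenic minus BDIX (0.86). The marked genes were chosen with earlier results of these arrays known.

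Clock genes outside the chosen 6 carry the tests, although their lists too were chosen with earlier results of these data known. The lists held 70 such genes, of which 50 had a probe and 38 were tested, while 12 were detected on 0 arrays. BDIV differed from BDIX in 10 of the 38 (8 lower and 2 higher), against 27.3% of all probes, with a median difference of -0.15 against -0.03 for all probes. The congenic strain differed from BDIX in 4 (1 higher and 3 lower), against 11.9%, with a median of -0.12 against 0.00. It differed from BDIV in 13 (7 higher and 6 lower), against 37%, with a median of 0.05 against -0.02. With median scaling the split was 3 higher and 0 lower in BDIV minus BDIX, 0 and 9 in congenic minus BDIX, and 0 and 20 in congenic minus BDIV, where the medians of all probes were 0.29, -0.47 and -0.80.

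The counts also changed when 1 pool was left out, which leaves fewer residual degrees of freedom as well. Leaving out a congenic pool cannot change a BDIV minus BDIX difference in this model, only its SE and p. Those of Btrc (-0.76), Cul4a (-0.75) and Ppp1cb (-0.82) were therefore the same without either congenic pool. The share of all probes called is not set beside these counts, so nothing particular to clock genes is read from them. For BDIV minus BDIX the count was 0 without the BDIV female pool, 6 without the BDIV male or either congenic pool, and 17 without the BDIX male pool. For congenic minus BDIX it was 1 without the congenic female, 2 without the congenic male and 10 without the BDIX male pool. For congenic minus BDIV it was 6 without the congenic male, 7 without the BDIV female, 8 without the BDIV male and 23 without either BDIX pool. Of the 27 calls over the 3 comparisons, 5 were kept whichever of the 6 pools was left out, namely Bhlhe40, Timeless and Gsk3b in congenic minus BDIV and Csnk1a1 in both congenic comparisons. Each of the other calls of clock genes named below was lost with at least 1 pool left out.

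Bhlhe40 (also known as Dec1), an E-box repressor that is itself switched on by Arntl and Clock, had the lowest p of the core clock genes outside the members. Levels were 9.06 and 9.18 in the congenic pools (male first), 8.69 and 8.96 in the BDIX pools, and 7.53 and 7.50 in the BDIV pools. Both BDIV pools lay below every other pool, while the congenic and BDIX pools lay close together. Bhlhe40 was lower in BDIV than in BDIX by a log2 difference of -1.31 ± 0.20 (limma, Benjamini-Hochberg adjusted p = 0.0057). It was higher in the congenic strain than in BDIV by 1.60 ± 0.20 (limma, adjusted p = 0.0024), and congenic minus BDIX was 0.29 ± 0.20 (limma, adjusted p = 0.339). The call for BDIV minus BDIX was lost without the BDIV female pool and with median scaling (limma, adjusted p = 0.0876, difference -0.95). That for congenic minus BDIV was lost with median scaling (limma, adjusted p = 0.243, difference 0.58). Relative to the median of all probes in that setting these differences were -1.24 and 1.37.

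Timeless, the mammalian relative of a fly clock gene, whose protein also serves at replication forks, read 7.52 and 7.42 in the congenic pools, 7.16 and 6.69 in the BDIX pools and 5.96 and 6.06 in the BDIV pools. The strains did not overlap, with BDIV lowest. BDIV minus BDIX was -0.91 ± 0.23 (limma, adjusted p = 0.0265) and congenic minus BDIV was 1.46 ± 0.23 (limma, adjusted p = 0.0046). The first call was lost without either BDIV pool or without the BDIX male pool (adjusted p = 0.0693 to 0.240), and both were lost with median scaling (adjusted p = 0.122 and 0.134).

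Per1, the period gene that responds quickly to light and to glucocorticoids, read 11.29 and 11.41 in the congenic pools, 10.94 and 11.40 in the BDIX pools and 10.69 and 9.90 in the BDIV pools. The BDIV pools lay below the others but stood 0.79 apart from each other. Per1 was higher in the congenic strain than in BDIV by 1.06 ± 0.29 (limma, adjusted p = 0.0277), and BDIV minus BDIX was -0.88 ± 0.29 (limma, adjusted p = 0.0609). The call was lost without the BDIV female pool, without either congenic pool and with median scaling. The difference with median scaling was 0.06, against -0.80 for the median of all probes.

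The remaining genes of the loop did not pass the test in any strain comparison. Cry1, the cryptochrome repressor, read 8.77 and 8.91 in the congenic, 9.004 and 9.41 in the BDIX and 9.32 and 9.46 in the BDIV pools. By strain means its order was opposite to that of Nr1d1, with congenic minus BDIV at -0.55 ± 0.19 (limma, adjusted p = 0.0549). Cry2 was detected on 3 arrays, none of them congenic, and read between 5.28 and 6.25. Tef, which shares the D-box with Dbp, read 7.88 to 8.66, and Nfil3, the repressor at the same site, read 6.98 to 7.71. Clock and Npas2, the partners of Arntl, and Rorb, an activator that competes with Nr1d1, had probes that were detected on 0 arrays, as did Tipin, the partner of Timeless. The probes of Fbxw11, Prkaa2, Ppargc1a, Ppara, Tsku, Avp, Hsph1 and Hspa1b were not detected either.

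**Figure D3:**
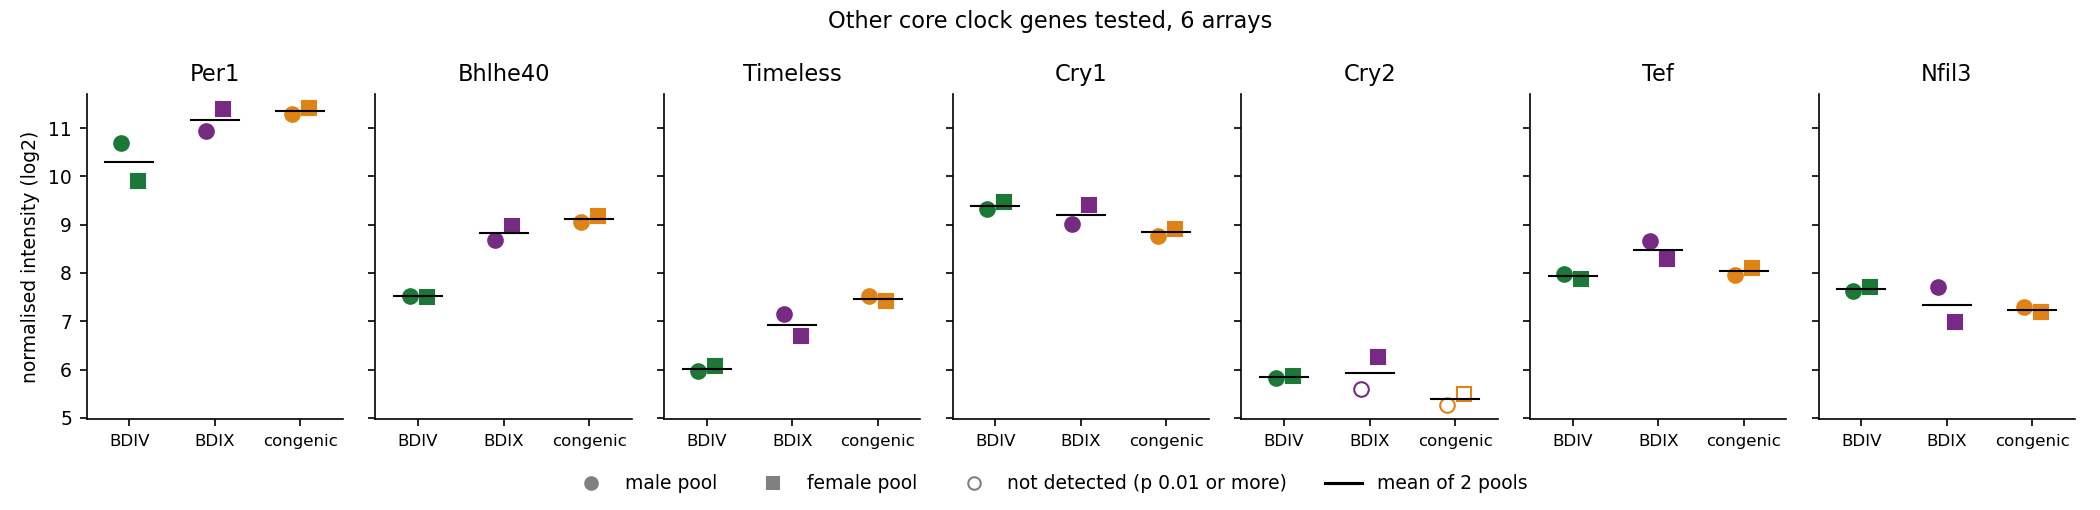
Normalised intensity (log2) of the 7 core clock genes tested outside the chosen 6, by strain, with circles for male pools, squares for female pools, open symbols where the probe was not detected and a line at the mean of the 2 pools. Bhlhe40 and Timeless are lowest in both BDIV pools, and Cry1 is lowest in both congenic pools.

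Among the enzymes that modify clock proteins, 10 were tested, and 1 rose and 2 fell in BDIV against BDIX (30%, against 27.3% of all probes called). Prkaa1, the AMP-activated kinase subunit that marks cryptochromes for loss, was higher in BDIV (1.16 ± 0.22, limma, adjusted p = 0.0104). Btrc, the ubiquitin ligase part that acts on period proteins, was lower (-0.76 ± 0.20, limma, adjusted p = 0.0288), as was the phosphatase subunit Ppp1cb (-0.82 ± 0.24, limma, adjusted p = 0.0409). All 3 calls were lost without the BDIV female pool, as the count of 0 above shows.

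In the congenic strain the casein kinase gene Csnk1a1 was not detected on either array, at 5.04 in both pools, against 6.54 and 7.26 in the BDIX pools and 6.66 and 6.76 in the BDIV pools. Its level was at least 2.67-fold lower than in BDIX (limma, adjusted p = 0.0123) and at least 2.34-fold lower than in BDIV (limma, adjusted p = 0.0036). A sequence difference under a probe and a lower transcript level cannot be told apart here. Gsk3b, a kinase that acts on Nr1d1 and other clock proteins, was lower in the congenic strain than in BDIX (-1.09 ± 0.28, limma, adjusted p = 0.0464) and than in BDIV (-1.75 ± 0.28, limma, adjusted p = 0.0046). Its call against BDIX was lost without the BDIX female pool (adjusted p = 0.0562) or the congenic female pool (adjusted p = 0.311), which read 7.31 beside 8.38 in the congenic male. Csnk2a1 was lower in the congenic strain than in BDIV (-1.23 ± 0.22, limma, adjusted p = 0.0066), and Usp7, a deubiquitinase that stabilises cryptochromes, was higher (1.005 ± 0.18, limma, adjusted p = 0.0064). The Usp7 difference was -0.0106 with median scaling, which is 0.79 above the median of all probes there. Csnk1d, Ppp1ca and Ppp1cc passed the test in no strain comparison.

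Of 6 cofactors tested, 2 were called in BDIV minus BDIX (33.3%, against 27.3% of all probes). Cul4a, part of a ubiquitin ligase, and Nr2f1, an orphan nuclear receptor, were lower in BDIV than in BDIX (-0.75 ± 0.21 and -0.82 ± 0.18, limma, adjusted p = 0.0361 and 0.0175). Nampt, the NAD-making enzyme whose gene carries E-boxes, and Cul4a were higher in the congenic strain than in BDIV (0.67 ± 0.21 and 0.82 ± 0.21, limma, adjusted p = 0.0428 and 0.0215). With median scaling the last pair read -0.36 and -0.17, which is 0.44 and 0.62 above the median of all probes. Ncor1 and Hdac3, the corepressor pair through which Nr1d1 silences Arntl, and Ddb1 passed the test in no strain comparison, with differences between -0.40 and 0.35.

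The output list of 15 tested genes held 3 calls in BDIV minus BDIX, 2 in congenic minus BDIX and 4 in congenic minus BDIV, or 20%, 13.3% and 26.7% against 27.3%, 11.9% and 37% of all probes. Dtx4 and Por, genes with daily rhythms in mouse liver, were lower in BDIV than in BDIX (-0.83 ± 0.21 and -0.82 ± 0.20, limma, adjusted p = 0.0255 and 0.0246), and the small heat shock gene Hspb1 was higher (0.89 ± 0.26, limma, adjusted p = 0.0423). Wee1, a cell cycle kinase with E-boxes in its mouse promoter, was lower in the congenic strain than in BDIX (-0.93 ± 0.22, limma, adjusted p = 0.0424) and than in BDIV (-1.07 ± 0.22, limma, adjusted p = 0.0111). Cirbp, a cold-induced RNA-binding protein tied to the temperature cycle, was higher in the congenic strain than in BDIX (0.94 ± 0.22, limma, adjusted p = 0.0381). In congenic minus BDIV, Dtx4 was higher (0.96 ± 0.21, limma, adjusted p = 0.0120) and Hspb1 lower (-0.97 ± 0.26, limma, adjusted p = 0.0261). Pdk4, a metabolic kinase that glucocorticoids and fasting induce, was not detected in the congenic pools and was at least 1.84-fold lower there than in BDIV (limma, adjusted p = 0.0131). Usp2, Avpr1a, Pnp, Leo1, Ypel5, Tspan4, Coq10b, Rbm3 and Slc16a1 passed the test in no strain comparison.

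**Figure D4:**
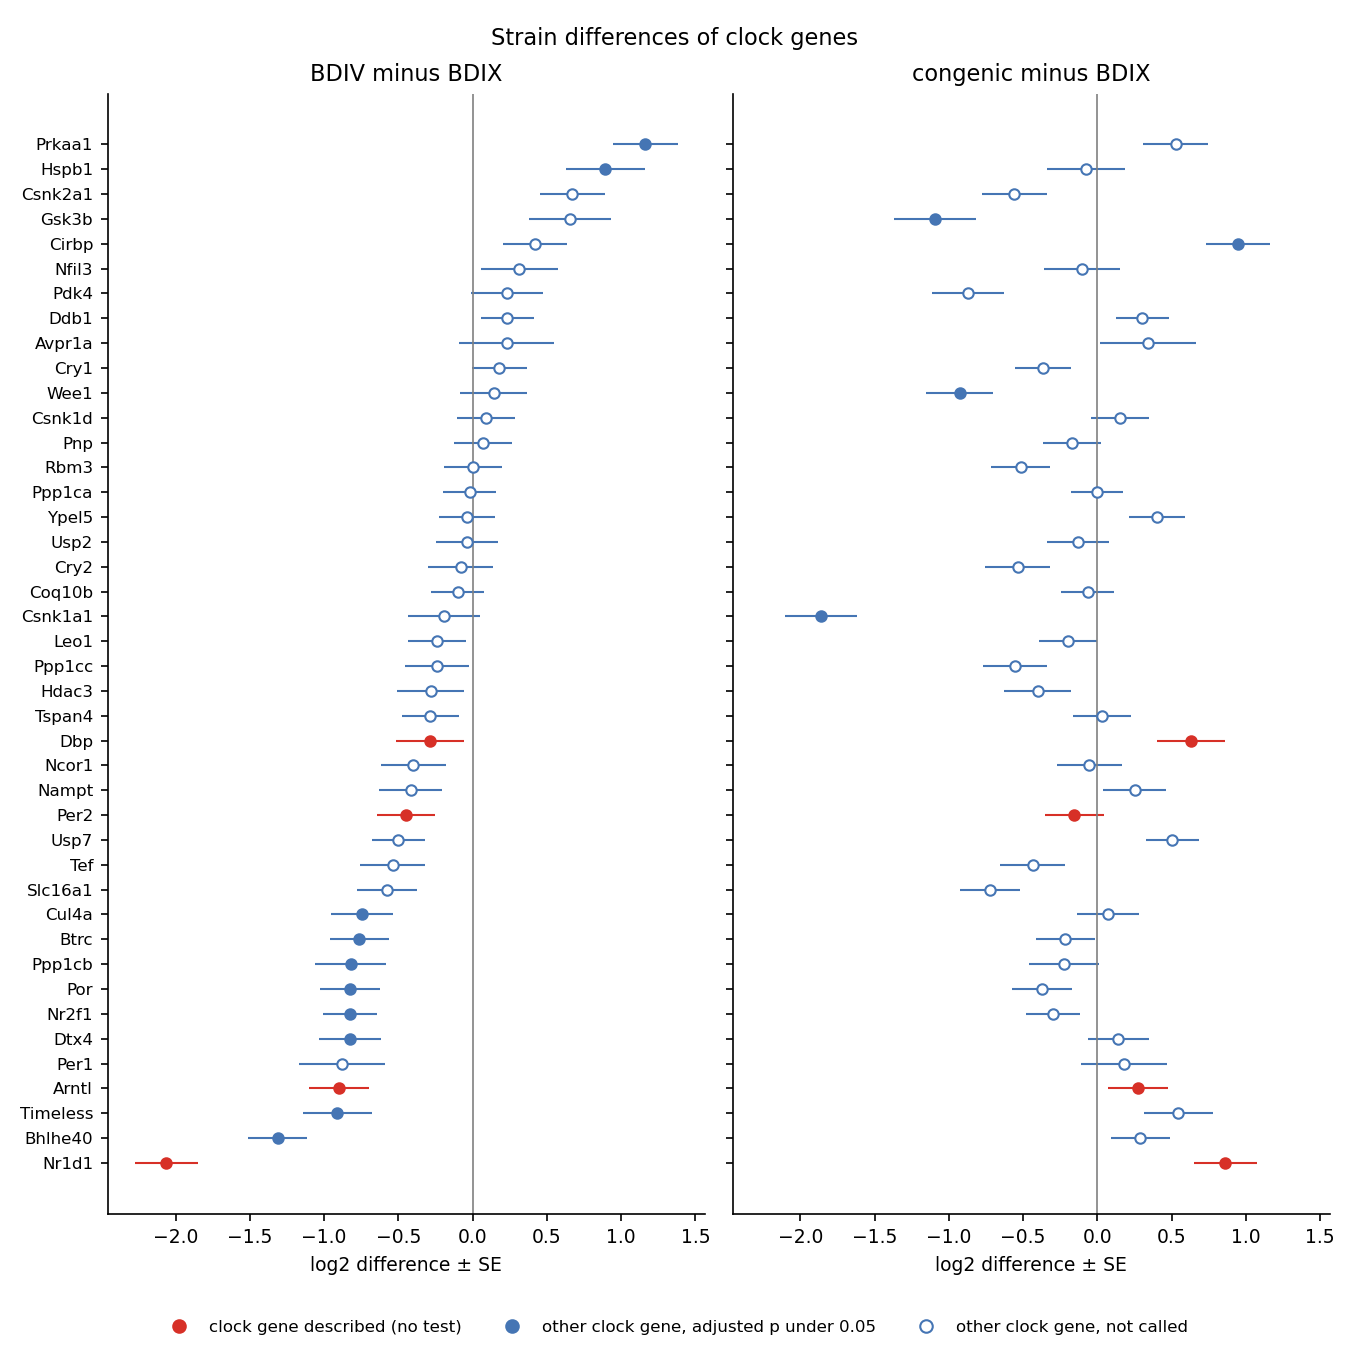
Log2 differences ± SE of the clock genes tested in BDIV minus BDIX and congenic minus BDIX, ordered by the first, with the 4 described genes in red and the other clock genes in blue, filled where the adjusted p was under 0.05. Nr1d1 is the lowest of them in BDIV minus BDIX (-2.06) and Bhlhe40 is next (-1.31), while Prkaa1 is the highest (1.16).

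No clock gene was called for sex. For male minus female limma called 0 of the 38 other clock genes and 0 of all 10484 probes, with 0 and 324 at an unadjusted p under 0.05. The difference was -0.07 ± 0.17 for Nr1d1, 0.12 ± 0.19 for Dbp, -0.07 ± 0.16 for Per2 and -0.27 ± 0.16 for Arntl. In each of the 3 strains Arntl read lower in males. Within a strain, the median size of the male minus female difference over 42 clock genes was 0.32 in BDIX, 0.13 in BDIV and 0.14 in the congenic strain, against 0.29, 0.11 and 0.20 over all probes. The largest such gap among the 4 members tested was 0.46, for Dbp in BDIX. With median scaling the medians over the clock genes rose to 0.69 in BDIX and 0.62 in the congenic strain. The matching values over all probes were not computed, so this rise is not read as particular to clock genes. Nr1d1 differed between strains in the same direction in both sexes, with BDIV minus BDIX at -1.89 in males and -2.24 in females and congenic minus BDIX at 0.73 and 0.99.

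Per1 and other clock genes also respond to stress hormones and to handling, so lists of such genes were read beside them. Of 14 glucocorticoid-induced genes tested, 0 were called in BDIV minus BDIX, with 1 at an unadjusted p under 0.05, where 27.3% of all probes were called. The share called was 7.14% in congenic minus BDIX and 28.6% in congenic minus BDIV, against 11.9% and 37% of all probes. In the congenic strain 1 was lower than in BDIX, namely Klf9 (-0.90 ± 0.20, limma, adjusted p = 0.0359), a call lost without either congenic pool. Against BDIV 3 were lower and 1 higher, with the lowest p for Klf9 (-1.001 ± 0.20, limma, adjusted p = 0.0096), lost without either congenic pool or the BDIV male pool, and for Pdk4.

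Of 17 immediate early genes tested, 5 were lower in BDIV than in BDIX and 7 were higher in the congenic strain than in BDIV, with 0 called the other way. These shares were 29.4% and 41.2%, where 27.3% and 37% of all probes were called in either direction. In the matching direction 13.5% of all probes were called lower in BDIV minus BDIX and 18.1% higher in congenic minus BDIV. Without the BDIV female pool Egr1 was the one call of the 5 that was kept, and with median scaling those of Arc, Junb and Klf2 were lost. Egr1, a zinc finger factor induced within minutes of stimulation, read 8.07 and 8.22 in the congenic, 8.84 and 8.94 in the BDIX and 7.41 and 7.40 in the BDIV pools, with BDIV minus BDIX at -1.49 ± 0.20 (limma, adjusted p = 0.0044). Junb, a subunit of the AP-1 factor, read 9.41 and 9.51 in the congenic, 8.75 and 8.73 in the BDIX and 7.84 and 7.82 in the BDIV pools. Its BDIV minus BDIX difference was -0.91 ± 0.19 (limma, adjusted p = 0.0142), a call lost without either BDIV pool and with median scaling, and congenic minus BDIV was 1.63 ± 0.19 (limma, adjusted p = 0.0020), lost with median scaling (adjusted p = 0.200). Fos was higher in the congenic strain than in BDIV by 1.84 ± 0.33 (limma, adjusted p = 0.0068). Ier2 was higher in the congenic strain than in BDIX (1.08 ± 0.22, limma, adjusted p = 0.0288), a call lost without either congenic pool and with median scaling. The part of sampling and handling in the clock gene differences was not tested.

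Levels of cell type markers moved with strain as well. Markers of myelinating Schwann cells, the defining cells of the nerve, were all detected (9 of 9 with a probe), and their summed linear level was 102122 to 140627 in BDIX, 54494 to 66506 in BDIV and 85884 to 94255 in the congenic pools. Fibroblast and matrix markers, of which Col6a2 was the 1 of 13 never detected, summed to 87458 to 93880, 55669 to 64969 and 68688 to 75954 in the same order. By these sums both lists were lowest in BDIV, as was Nr1d1, and both were lower in the congenic strain than in BDIX, where Nr1d1 was higher.

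Red cell markers (8 of 8 detected) summed to 67054 to 70640 in BDIX, 13690 to 19607 in BDIV and 66299 to 77766 in the congenic pools, and were lowest in the strain where Nr1d1, Arntl and Bhlhe40 were lowest. Sensory neuron markers (17 of 19 detected, without Scn9a and Calca) summed to 91788 to 103324 in BDIX, 164033 to 166098 in BDIV and 96760 to 121860 in the congenic pools, and were highest in BDIV. Of the markers tested in BDIV minus BDIX, 6 of 9 Schwann cell, 7 of 12 fibroblast and 6 of 8 red cell genes were lower and 14 of 17 neuron genes were higher, where 13.5% of all probes were called lower and 13.8% higher. In congenic minus BDIV, where 18.1% of all probes were called higher and 18.9% lower, 3 Schwann cell genes were higher and 2 lower, 4 fibroblast genes were higher and 3 lower, all 8 red cell genes were higher and 11 neuron genes were lower. In congenic minus BDIX, where 4.39% were called higher and 7.51% lower, 4 Schwann cell, 4 fibroblast and 3 red cell genes were lower, and 1 neuron gene was higher and 1 lower.

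Markers of neighbouring tissue were read as well. Oligodendrocyte markers (5 of 7 detected, without Opalin and Olig2) summed to 1562 to 1640 in BDIX, 1984 to 3969 in BDIV and 1914 to 4870 in the congenic pools. Pituitary markers (3 of 7 detected, without Lhb, Fshb, Cga and Pou1f1) summed to 1665 to 5447, 156 to 388 and 296 to 7266. Skeletal muscle markers (5 of 9 detected, without Myh2, Myh4, Tnni2 and Mylpf) summed to 266 to 352, 682 to 781 and 578 to 949. The pituitary sums lay far apart between the pools of each strain, and the muscle sums of both BDIV and both congenic pools lay above those of both BDIX pools. The part of cell makeup in the clock gene differences was not tested.

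**Figure D5:**
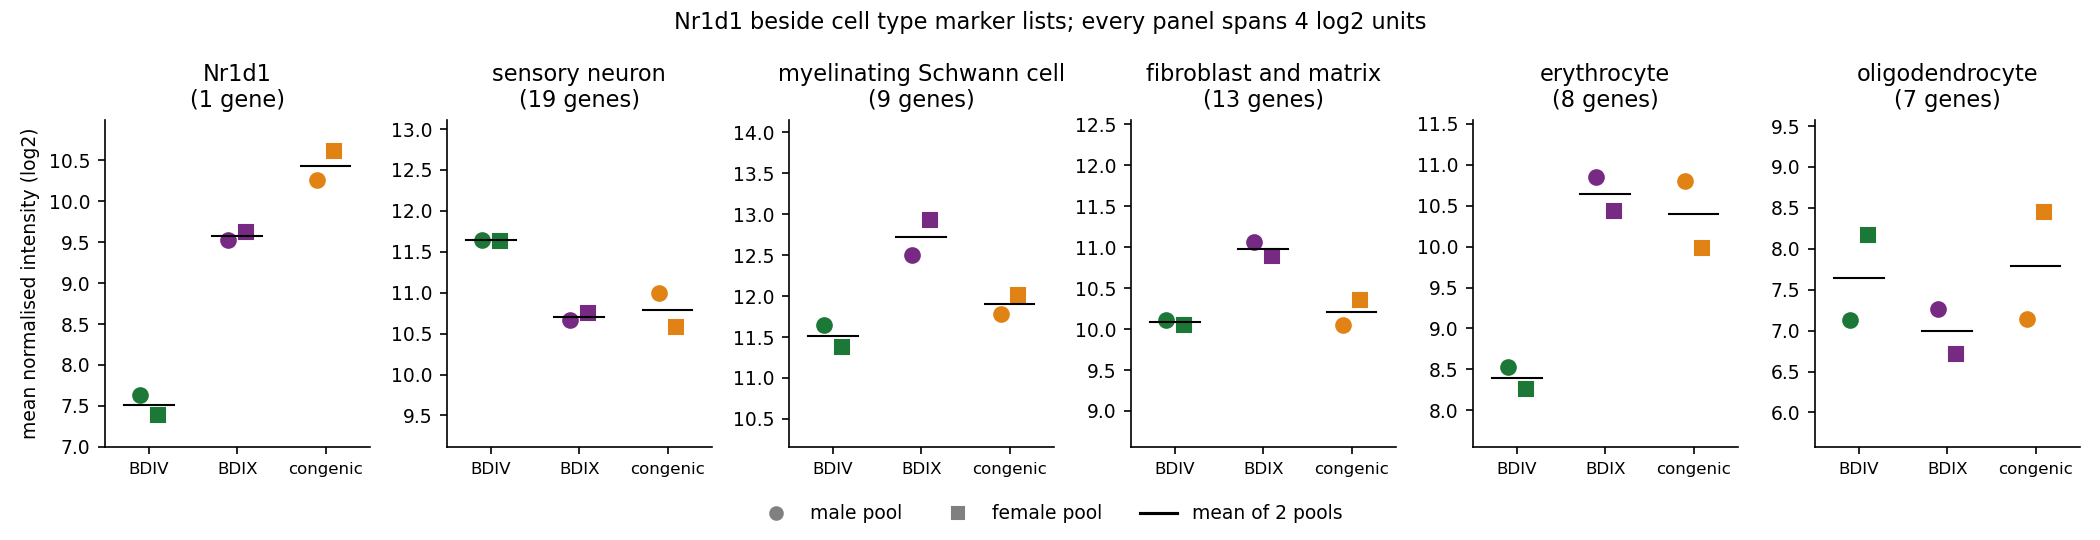
Normalised intensity (log2) of Nr1d1 beside the mean of 5 marker lists, by strain, with circles for male pools, squares for female pools, lines at strain means and the same span of log2 units in every panel. Nr1d1, the Schwann cell, the fibroblast and the red cell lists have their lowest strain mean in BDIV, and the fibroblast list overlaps between the BDIV (10.05 to 10.12) and congenic pools (10.06 to 10.35).

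The named genes whose levels over the 6 arrays were most like those of a member were found by the root mean square difference of the centred log2 values, among probes with an SD of at least 0.5. For Arntl they were Sparcl1 (0.0769), Gstm2 (0.0789) and Plxnb2 (0.0985), a matrix glycoprotein, a glutathione transferase and a plexin. For Dbp they were Ubxn11 (0.120), Prdx6 (0.126) and Pik3ap1 (0.131), and for the Dbp values turned in sign Usp8 (0.102), Rab5a (0.106) and Ndfip1 (0.109). For Nr1d1, a search added after its values were seen, they were the amino acid transporter gene Slc38a5 (0.263), the endothelial gene Vwf (0.271) and Ddn (0.312). These distances are in log2 units and depend on the spread of the member, so they are not compared between members. The SD over the 6 arrays was 1.35 for Nr1d1, 0.57 for Arntl and 0.45 for Dbp. None of the genes found was in the clock lists. Those lists had 50 genes with a probe, against 2297 or 2298 candidate probes per search, so nothing is read from this.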

How the data were processed

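RNA of pooled trigeminal nerves was hybridised to 1 Illumina array per strain and sex, per the labels. Per the file headers, the authors deposited the signal intensity of every probe on each array with its detection p-value. A second deposited table gives processed intensity values. Per the submitters' processing notes, BeadStudio 3.0 was used, and no source read here names a genome build for the probes. Of 21791 probes, 242 in 121 pairs had values exchanged between the deposited tables and were left out. Platform annotation gave 13387 probes 1 gene symbol and 8404 none, and 13349 were matched by gene number to the GRCr8 gene table.

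The members and all gene lists were chosen with earlier results of these data known. Signals were corrected by the normal-exponential model with background from the detection p-value with 16 added as an offset, then quantile normalised between arrays and put on the log2 scale. Probes detected at p under 0.01 on at least 2 arrays were tested with limma 3.58.1 in R 4.3.3 (strain and sex, intensity trend, Benjamini-Hochberg over 10484 probes, calls at adjusted p under 0.05). The model had 2 residual and 5.32 prior degrees of freedom, and precision is limited by the number of arrays. A gene not detected on any array of a strain is given as an "at least" fold against a floor, its own reading or the lowest detected value if that was higher, averaged over the arrays of that strain. Named genes were the members, every clock list gene with a probe, the 3 nearest profiles of Dbp, of Dbp with the sign turned and of Arntl, and the 2 smallest p of each context list. Others named (Nr1d1 profiles, Fos, Ier2, Arc, Klf2 and single markers) were chosen after their values were seen. The steps were tested on simulated data. Alternatives were the scaling, source of values, background, offset, filter, variance model, covariates and leaving out each array.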

Additional observations from a re-analysis of the deposited data

Results flagged for a closer look

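Among the clock genes tested, Per1 and Avpr1a differed between the male and female pools in opposite directions in different strains, by at least 0.4 log2 units each way. Male minus female was 0.79 for Per1 in BDIV and -0.46 in BDIX. For Avpr1a, a vasopressin receptor detected on 2 arrays, it was 0.52 in BDIX and -0.93 in the congenic strain. Each value rests on 1 pool per sex, and the differences between strains were not tested.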

How the results depend on the processing

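For BDIV minus BDIX the count of other clock genes called was 10, against 3 with median scaling and 5 without a filter on dim probes, and ranged from 0 to 17 with 1 array left out. For congenic minus BDIX it was 4, against 9 and 1 under those settings, and ranged from 1 to 10. For congenic minus BDIV it was 13, against 20 with median scaling, and ranged from 6 to 23. The other alternatives, among them cyclic loess, the authors' processed values, no background correction and an offset of 50, kept these counts within 1.5 times. For male minus female the count was 0 throughout. The share of all probes called in each setting is not set beside these counts, so nothing particular to clock genes is read from their changes. The median sex gap of the clock genes moved with median scaling, to 0.69 in BDIX and 0.62 in the congenic strain, with no matching value computed over all probes. With median scaling the congenic minus BDIV differences of Cul4a, Nampt and Usp7 reversed to -0.17, -0.36 and -0.0106, where the median of all probes was -0.80. The cause of these changes was not tested, except that leaving out an array leaves fewer residual degrees of freedom. A background from the signals at detection p of 0.5 and 0.16, chosen after seeing the data because the estimated background SD was larger on the congenic male and BDIX male arrays (32.4 and 39.2) than on the others (10.6 to 15.9), gave 10, 4 and 13 calls.

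Nr1d1 was lowest in BDIV under every alternative, with BDIV minus BDIX from -2.30 to -1.68 and congenic minus BDIV from 1.94 to 3.16, whereas congenic minus BDIX ranged from 0.26 to 1.08. Arntl in congenic minus BDIX turned to -0.33 and Per2 in congenic minus BDIV to -0.72 with median scaling. Dbp and Arntl lay near background, which limits both. No paired analysis by replicate number was possible because the labels give none. The sex term of the model matches the male pools and the female pools across strains.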
